A study of Mus musculus with 6 samples.

Results

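The genes described here encode TRP cation channels, including the mucolipins (Mcoln) and polycystins (Pkd), and 4 groups of anion channels and their relatives, namely the ClC proteins (Clcn), the CLIC proteins (Clic), the anoctamins (Ano) and the bestrophins (Best). Members were chosen by symbol, as every gene of these families that a single-gene probe set of the array names, which gave 48 genes of 18193 and 92 probe sets of 45037. Among the 48, Trpc4ap encodes a protein that associates with a TRP channel and is not itself a channel. Not all other members are channels either, as several ClC proteins are exchangers of chloride and protons. The study compared gene expression in cochlear sensory epithelia (CSE) of adult Swiss mice aged 8 weeks with CSE of Swiss mice at postnatal day 3 (P3), a strain that the methods give as Swiss Webster, with 3 arrays per stage, each of RNA pooled from 20 mice. No genotype or treatment is given for either stage, so age is the labelled difference. The CSE of both stages held hair cells and supporting cells, with inner sulcus and interdental cells in the adult and the greater and lesser epithelial ridges at P3, so the stages differ in cell makeup. In such bulk tissue, fewer cells of a type and less RNA per cell cannot be told apart.

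TRP channels pass calcium and other cations when opened by lipids, temperature, osmotic change or receptor signalling. Anoctamins are opened by intracellular calcium and either carry chloride or move phospholipids between membrane leaflets, while ClC proteins are chloride channels of the cell surface or exchangers of chloride and protons in endosomes and lysosomes. In the cochlea, chloride movement matters for fluid secretion, and in the mouse before hearing onset calcium-activated chloride release by Ano1 in inner supporting cells is known for its part in the spontaneous activity of the sensory epithelium.

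P3 replicate 1 stood apart from the other arrays. Its 3' to 5' signal ratio of the Gapdh control, a measure of RNA integrity and amplification, was 82.0, against 0.707 to 2.07 on the other 5 arrays. Its background level was 34.5, against 6.29 to 16.3 elsewhere, and many of the results, though not all, are therefore also given without it. Of 15 hair cell markers, 12 were named on the array and 10 could be measured, with none called between the stages. The hair cell markers Slc26a5, the motor protein prestin of outer hair cells, and Tmc1, a part of the mechanotransduction channel, were above background on too few arrays for a test. At an unadjusted p under 0.05, limma placed 0 of the 10 hair cell markers higher in the adult and 1 at P3. All 9 granulocyte markers measured were called higher in the adult. Their summed signal was 3819 to 17140 in the adult and 117 to 345 at P3, or 117 to 169 without P3 replicate 1. Of the 9, 3 were below background on every P3 array and so were kept through the adult arrays alone. The part of these cells in the results that follow was not tested.

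Of the 48 member genes, 33 had a probe set that exceeded background on 3 or more of the 6 arrays and were tested. Ano1, the calcium-activated chloride channel, was lower in the adult CSE, and Ano4, another anoctamin, was higher in the adult, each at its brightest probe set. The other 31 members did not pass the test, which asked for a limma adjusted p under 0.05 over all probe sets and a fold of at least 2. Over all genes tested in the same way, 10.1% were called, with 4.58% higher in the adult and 5.54% higher at P3, so the 2 of 33 members called, or 6.06%, were not a larger share than among other genes. At an unadjusted p under 0.05, 6 members lay higher in the adult and 6 lay higher at P3, against 13.1% of all genes tested in the adult direction and 15.8% in the P3 direction. These shares also stand behind the counts at that unadjusted threshold given by family. The median log2 fold change (adult minus P3) was 0.55 over the 33 members and -0.04 over all 13743 genes tested. Without P3 replicate 1, these medians were 0.37 and -0.03, and 4 members were called, namely Ano4 and Trpm6 higher in the adult and Ano1 and Pkd2l1 higher at P3. The signals of the stages did not overlap for 11 of the 33 members, 6 higher in the adult and 5 at P3, or 33.3%, against 36.3% of all genes tested. With 3 arrays a stage, exact permutation has 0.1 as its smallest p, and it was not used.

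**Figure D1:**
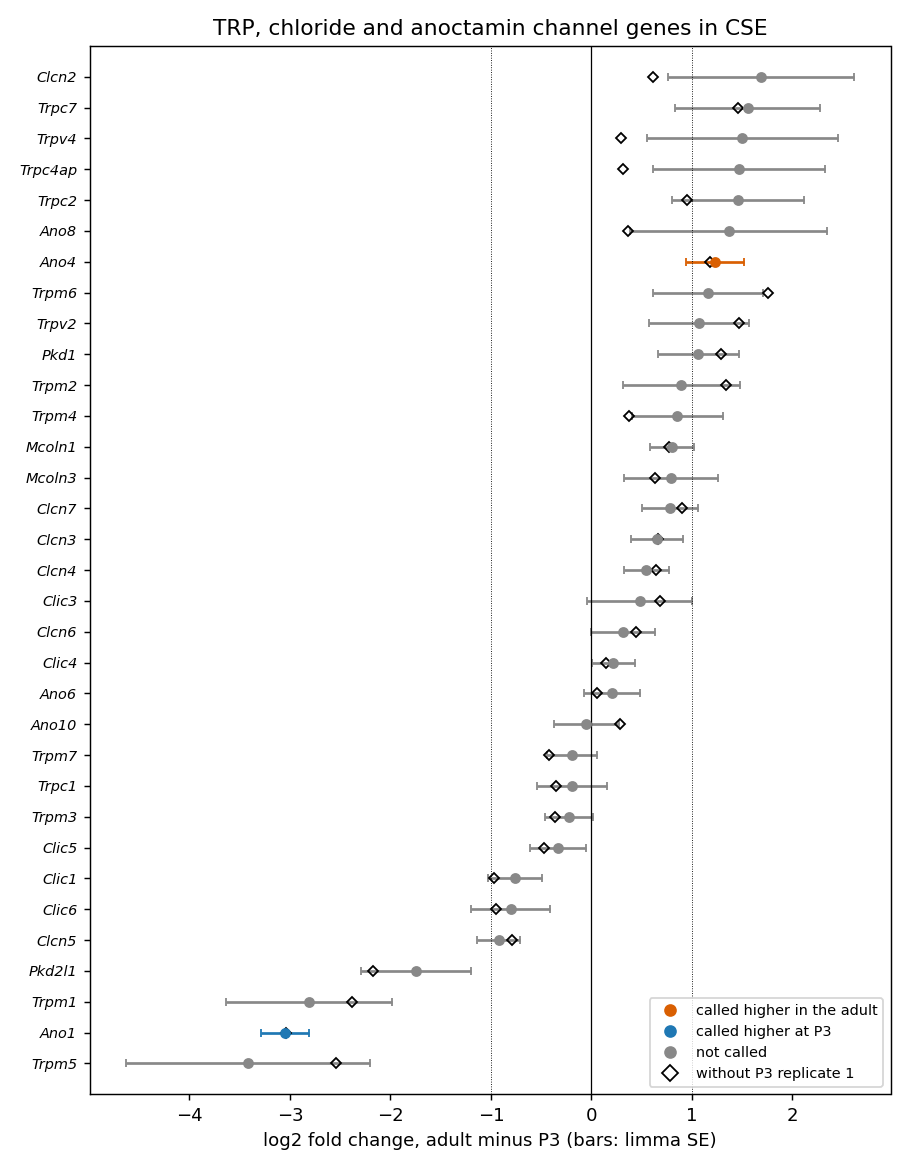
The horizontal axis gives the log2 fold change (adult minus P3) for the 33 members tested, with limma's standard error as bars, and open diamonds for the value without P3 replicate 1. Ano1 at -3.05 and Ano4 at 1.23 were called, and for Clcn2, Trpv4, Trpc4ap, Ano8 and Trpc2 the value above 1 lay below 1 without P3 replicate 1.

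Ano1 was lower on every adult array than on any P3 array. Its brightest probe set gave signals of 55.7, 80.8 and 77.6 in the adult CSE (replicates 1, 2 and 3), against 591, 638 and 523 at P3. The adult arrays lay far below the P3 arrays, and P3 replicate 1 lay between the other P3 arrays. The mean was 71.3 ± 13.7 in the adult and 584 ± 57.8 at P3 (SD, n = 3 each), a log2 fold change of -3.05 (limma, SE 0.24, adjusted p = 0.000627), or 8.27-fold higher at P3. The suffix of this probe set marks a design in which probes can match transcripts of more than 1 gene. Suffixes for such designs are also borne by the brightest probe sets of Clcn3, Clcn5, Clic6 and Mcoln1 and by a called Trpm5 probe set. A dimmer probe set of Ano1 without such a suffix gave 15.3, 24.1 and 28.8 in the adult and 146.5, 132 and 104 at P3. It too was called higher at P3, with a log2 fold change of -2.52 (limma, SE 0.36, adjusted p = 0.00616), and adult replicate 1 was below background there. Without P3 replicate 1 the values were -3.04 and -2.41, and both probe sets passed whichever array was omitted. Of 13 supporting cell markers measured, 2 were called higher in the adult, Gjb6 (4.57-fold) and S100a1 (4.18-fold). Another 5 were called higher at P3, namely Tecta (89.8-fold), Tectb (76.8-fold), Sox2 (5.59-fold), Jag1 (4.43-fold) and Otog (2.32-fold). The summed signal of the 13 was 21584 to 27103 in the adult and 18158 to 44660 at P3. The highest P3 value was that of P3 replicate 1, and the next was 25329. Of that highest sum, Epyc alone, which was not called, gave 21617. None of the 13 markers was below background on all arrays of a stage. Their part in the Ano1 values was not tested.

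Ano4, an anoctamin of less settled function, gave signals of 107, 112 and 163 in the adult CSE against 49.5, 58.4 and 52.4 at P3. The stages did not overlap, and adult replicate 3 was the highest array. Ano4 averaged 127 ± 30.9 in the adult and 53.5 ± 4.53 at P3 (SD, n = 3 each), with a log2 fold change of 1.23 (limma, SE 0.29, adjusted p = 0.0364), or 2.35-fold. The value was 1.18 (limma adjusted p = 0.0395) without P3 replicate 1. The call was lost on leaving out any other array, with limma adjusted p = 0.0559, 0.0655 and 0.188 on omitting adult replicates 1, 2 and 3 and 0.104 and 0.118 on omitting P3 replicates 2 and 3. It was also lost with arrays scaled to the same median (adjusted p = 0.190) and in limma without its intensity trend (0.0748).

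The promoters of Ano1 and Ano4 are shown because these genes were called in opposite directions. They are from RefSeq on GRCm38.p6 and run from 250 bases before to 50 bases after the start, with capitals for GGGCGG (the GC box), CCAAT (the CCAAT box) or TATAAA (the TATA box) on either strand.
Ano1 (chr7:144738524-144738823, minus strand): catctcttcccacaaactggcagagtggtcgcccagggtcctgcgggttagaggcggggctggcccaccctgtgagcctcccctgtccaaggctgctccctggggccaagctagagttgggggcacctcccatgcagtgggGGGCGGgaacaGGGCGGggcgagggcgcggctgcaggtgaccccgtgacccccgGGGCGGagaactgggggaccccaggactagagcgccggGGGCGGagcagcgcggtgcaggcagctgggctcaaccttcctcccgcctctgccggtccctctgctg
Ano4 (chr10:89257741-89258040, minus strand): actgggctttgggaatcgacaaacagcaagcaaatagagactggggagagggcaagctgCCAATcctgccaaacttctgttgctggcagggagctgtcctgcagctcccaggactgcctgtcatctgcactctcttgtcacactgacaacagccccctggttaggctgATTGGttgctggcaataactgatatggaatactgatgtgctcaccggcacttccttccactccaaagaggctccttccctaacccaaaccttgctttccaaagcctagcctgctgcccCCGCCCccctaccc
The Ano1 window held 4 GC boxes and 0 CCAAT boxes, with 18 CpG sites and 71.7% G and C. The Ano4 window held 1 GC box and 2 CCAAT boxes, with 3 CpG sites and 55.3% G and C, and the motifs did not overlap each other in either. Neither held TATAAA. Of 32851 promoter windows of this length, 35.7% held a GC box, 37.4% a CCAAT box and 13.6% a TATA box, and the median was 7 CpG sites and 52.7% G and C. These matches describe the letters only.

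The other anoctamins tested were not called. Ano6, a calcium-activated phospholipid scramblase, gave 521, 949 and 838 in the adult and 529, 729 and 702 at P3, with a log2 fold change of 0.20 (SE 0.28). Ano10, a further member of the family, gave 119.6, 132 and 162 in the adult and 225, 110.3 and 114 at P3. P3 replicate 1 was the highest array for Ano10, and its log2 fold change was -0.05 with that array and 0.28 without it. Ano8, which joins the endoplasmic reticulum to the plasma membrane, gave 25.4, 9.42 and 14.96 in the adult and 1.49, 12.3 and 11.4 at P3. Its log2 fold change of 1.36 was 0.37 without P3 replicate 1, where its signal was below background.

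**Figure D2:**
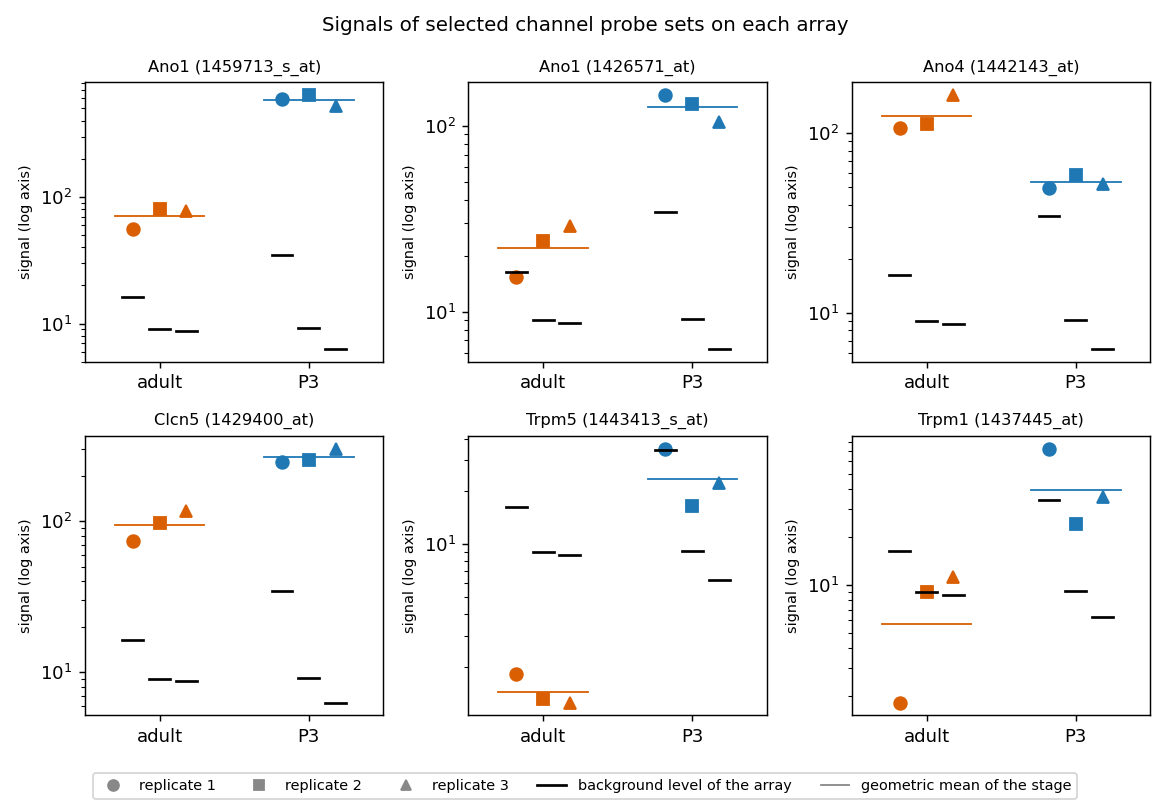
Signal on each of the 6 arrays (vertical log axis) of 6 probe sets for Ano1, Ano4, Clcn5, Trpm5 and Trpm1, with marker shapes for replicates, black dashes for the background level of each array and coloured lines for geometric means. Both Ano1 probe sets are lower on every adult array, and the Trpm5 probe set is below background on all 3 adult arrays.

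None of the 6 ClC genes tested was called at its brightest probe set, and at an unadjusted p under 0.05 limma placed 3 higher in the adult and 1 at P3, namely Clcn5, an exchanger of chloride and protons in early endosomes, best known from the kidney. Its brightest probe set gave 249.9, 281 and 261 in the adult and 603, 449.7 and 460.1 at P3, with no overlap. The log2 fold change of -0.92 (limma, SE 0.21, adjusted p = 0.0360) passed the threshold on p and not that on fold. The next brightest probe set of Clcn5 gave 73.7, 96.8 and 116 in the adult and 247, 256 and 303 at P3. It was called higher at P3 with a log2 fold change of -1.51 (limma, SE 0.25, adjusted p = 0.0111), or -1.57 without P3 replicate 1, and it no longer passed without P3 replicate 3 (adjusted p = 0.0579) or with arrays scaled to the same median (0.139). The other 2 probe sets of Clcn5 did not pass (limma adjusted p = 0.356 and 0.344).

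The intracellular ClC exchangers other than Clcn5 had positive log2 fold changes that did not pass the test. Clcn3, of endosomes and synaptic vesicles, gave 936, 511 and 679 in the adult and 443, 445 and 425 at P3 (log2 fold change 0.65, limma adjusted p = 0.168). Clcn4, another endosomal exchanger, gave 685, 498 and 604 in the adult and 463, 378 and 376 at P3 (log2 fold change 0.55, limma adjusted p = 0.177). Clcn7, the lysosomal exchanger that osteoclasts need to resorb bone, gave 146, 119 and 174 in the adult and 99.6, 66.0 and 90.7 at P3 (log2 fold change 0.78, limma adjusted p = 0.133). In all 3 genes the lowest adult array lay above the highest P3 array, and 36.3% of all genes tested were likewise without overlap in either direction. Of 7 osteoclast markers, 5 were measured, with 0 called for the adult and 1 for P3, and their summed signal was 164.5 to 476 in the adult and 835 to 1972 at P3, or 835 to 932 without P3 replicate 1. None of the 5 was below background on all arrays of a stage, and their part in the Clcn7 values was not tested. Clcn6, of late endosomes, overlapped between the stages, with a log2 fold change of 0.31 (SE 0.32). Clcn2, a chloride channel of the cell surface, gave 118, 27.1 and 77.3 in the adult and 4.39, 35.2 and 47.5 at P3, and its log2 fold change of 1.69 was 0.62 without P3 replicate 1.

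The CLIC proteins resemble glutathione transferases and occur in soluble and membrane-bound form. None of the 5 was called, and at an unadjusted p under 0.05 limma placed 0 higher in the adult and 1 at P3. This was Clic1, with 389, 609.5 and 535 in the adult and 641, 1005 and 959 at P3, a log2 fold change of -0.76 (limma, SE 0.27, adjusted p = 0.132). Without P3 replicate 1 it was -0.97 (limma adjusted p = 0.0446), just under a fold of 2. Clic5, which mouse hair cells need at the base of their stereocilia, gave 81.8, 115 and 125 in the adult and 111, 161 and 133 at P3, with a log2 fold change of -0.34 (SE 0.28). Clic6 gave 248, 613 and 239 in the adult and 475, 801 and 508 at P3, so adult replicate 2 lay inside the P3 range (log2 fold change -0.80, SE 0.39). Clic4 and Clic3 had log2 fold changes of 0.22 (SE 0.22) and 0.48 (SE 0.52), with overlapping stages.

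None of the 7 TRPM genes tested was called at its brightest probe set, and at an unadjusted p under 0.05 limma placed 0 higher in the adult and 2 at P3, Trpm5 and Trpm1. Trpm5, a calcium-activated cation channel of taste cells, gave 27.1, 1.03 and 5.57 in the adult and 193, 39.0 and 25.1 at P3 at its brightest probe set. Adult replicate 1 lay within the P3 range, and P3 replicate 1 was far above the others (log2 fold change -3.41, SE 1.21, limma adjusted p = 0.131, or -2.54 without P3 replicate 1). At a dimmer probe set, Trpm5 gave 1.82, 1.31 and 1.25 in the adult and 35.0, 16.5 and 22.2 at P3. All adult signals were below background there, so this probe set was kept through its P3 arrays alone. The filter asking for 4 arrays left it out. Against adult signals raised to background, Trpm5 was at least 2.16-fold higher at P3, with P3 replicate 1 at 35.0 against a background level of 34.5. Without that raising, this probe set was called higher at P3 with a log2 fold change of -4.02 (limma, SE 0.86, adjusted p = 0.0282). That call was lost without P3 replicate 1, 2 or 3 (limma adjusted p = 0.0610, 0.113 and 0.142) and without adult replicate 2 or 3 (0.0509 and 0.0893). With signals floored at background, the adjusted p was 0.326, and the remaining probe set of Trpm5, with a log2 fold change of -1.97, did not pass.

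Trpm1, a channel of melanocytes and of retinal bipolar cells, gave 1.82, 8.97 and 11.2 in the adult and 72.2, 24.3 and 36.1 at P3. The stages did not overlap, and the adult signals lay near or below background, above it on 1 array (log2 fold change -2.81, SE 0.83, limma adjusted p = 0.0795, or -2.38 without P3 replicate 1). Another probe set of Trpm1 had a log2 fold change of -3.09 (SE 1.25) and did not pass either. Of 7 markers of melanocytes and strial intermediate cells measured, 1 was called higher at P3, Pmel, a protein of pigment granules, and 0 in the adult, although the median log2 fold change of the 7 was 1.11. Dct and Mlana were higher on every adult array than on any P3 array (log2 fold change 1.72 and 2.32) but were not called. Oca2, like Pmel, was lower on every adult array (-1.32) and was not called. The summed signal of the 7 was 1539.5 to 7527 in the adult and 1372 to 1950 at P3. Of these sums, Dct alone gave 1197, 4484 and 5477 in the adult and 948, 786 and 1114 at P3. All 7 markers were above background on at least 1 array of each stage. Their part in the Trpm1 values was not tested.

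The other TRPM channels overlapped between the stages at their brightest probe set. Trpm6, a channel and kinase of epithelial magnesium uptake, gave 55.0, 51.2 and 54.3 in the adult and 54.3, 20.1 and 12.5 at P3, so that P3 replicate 1 alone reached the adult level. Its log2 fold change of 1.16 (limma adjusted p = 0.245) was 1.75 without that array (limma adjusted p = 0.0227). Trpm7, the related channel of most cells, and Trpm3, a channel opened by heat and steroids, had log2 fold changes of -0.19 (SE 0.25) and -0.23 (SE 0.24). Trpm4, a calcium-activated channel for monovalent cations, gave 96.1, 122 and 185 in the adult and 36.4, 91.9 and 109 at P3, and its log2 fold change of 0.86 was 0.37 once P3 replicate 1 was left out. Trpm2, a channel opened by oxidative stress and known from myeloid cells, had a log2 fold change of 0.89 (SE 0.58) at its brightest probe set and -0.99 at another.

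Both mucolipins tested had positive log2 fold changes and neither passed, with 1 higher in the adult and 0 at P3 at an unadjusted p under 0.05 in limma. Mcoln1, the cation channel of lysosomes, gave 208, 230.2 and 255 in the adult and 128, 122 and 149 at P3. Mcoln1 did not overlap between the stages, and its log2 fold change was 0.80 (limma, SE 0.22, adjusted p = 0.0646), or 0.77 without P3 replicate 1, under a fold of 2. A further probe set gave 131, 151 and 148 in the adult and 67.2, 89.98 and 91.6 at P3, also with a log2 fold change of 0.80. Mcoln3, the gene mutated in the deaf varitint-waddler mouse, gave 272, 1040 and 851 in the adult and 289, 449 and 357 at P3. Adult replicates 2 and 3 lay above all P3 arrays and adult replicate 1 below them, and the log2 fold change was 0.79 (SE 0.47). Without adult replicate 1 it was 1.39 (limma adjusted p = 0.0289), which passes, whereas a dimmer probe set of Mcoln3 had a log2 fold change of -0.20 (SE 0.74).

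Neither polycystin gene tested was called, and at an unadjusted p under 0.05 limma placed 1 in each direction. Pkd2l1, a polycystin channel found in cilia and in sour taste cells, gave 12.1, 9.98 and 12.7 in the adult and 21.4, 62.8 and 43.3 at P3. The stages did not overlap, although P3 replicate 1 was below its background level and was the lowest P3 array. The log2 fold change was -1.75 (limma, SE 0.55, adjusted p = 0.0929), or -2.18 (limma adjusted p = 0.0183) without P3 replicate 1. Pkd1, a large membrane protein of primary cilia, gave 179, 80.5 and 206 in the adult and 94.4, 57.5 and 60.2 at P3, with a log2 fold change of 1.06 (SE 0.40), or 1.48 without adult replicate 2 (limma adjusted p = 0.0456), a call that the full set did not give.

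No TRPC or TRPV gene was called, and at an unadjusted p under 0.05 limma placed 0 of the 3 TRPC and 0 of the 2 TRPV genes in either direction. Trpc7, a channel opened by diacylglycerol, gave 29.8, 10.5 and 13.7 in the adult and 4.83, 5.46 and 6.42 at P3, without overlap, and was above background on 1 P3 array (log2 fold change 1.55, SE 0.72, limma adjusted p = 0.238). Trpc1, which forms channels with other TRPC subunits, had a log2 fold change of -0.19 (SE 0.35), and Trpc2, the channel of the rodent vomeronasal organ, of 1.46 (SE 0.66), or 0.95 without P3 replicate 1. Trpv4, a channel opened by osmotic swelling and warmth, gave 34.7, 46.3 and 90.3 in the adult and 3.47, 37.5 and 49.0 at P3. P3 replicate 1 was below background and far under the rest, and the log2 fold change of 1.502 was 0.293 without it. Trpc4ap was low on the same array, with 13.6 on P3 replicate 1 and 119 and 190 on the other P3 arrays, against 255, 128 and 199 in the adult (log2 fold change 1.47, or 0.32 without P3 replicate 1). Trpv2, a channel known from macrophages and neurons, gave 50.4, 29.6 and 55.9 in the adult and 35.7, 15.6 and 16.1 at P3 (log2 fold change 1.07, limma adjusted p = 0.238, or 1.46 without P3 replicate 1). Of 10 macrophage markers, 1 was called higher in the adult (Lyz2) and 1 at P3 (Mrc1). The median log2 fold change of the 10 was 0.009. Their summed signal was 2640 to 4147 in the adult and 1514 to 2110 at P3. Without P3 replicate 1 the P3 range was 1514 to 1785. Of these sums, Lyz2 alone gave 876, 2251 and 1310 in the adult and 141, 161 and 161 at P3. None of the 10 was below background on all arrays of a stage, and their part in the Trpv2 and Trpm2 values was not tested.

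The remaining 15 members had no probe set above background on 3 arrays and were not tested. They were Ano3, Ano9, Best1, Best2, Clcn1, Mcoln2, Pkd1l2, Pkd2l2, Trpa1, Trpc4, Trpc5, Trpc6, Trpm8, Trpv1 and Trpv6. Both bestrophins, chloride channels best known from the retinal pigment epithelium and other epithelia, were among them. Clcn1, the chloride channel of skeletal muscle, the cold-sensing channel Trpm8 and the diacylglycerol-opened Trpc6 were above background on 0 arrays. The highest count among the 15 was 2 arrays, reached by Trpa1, Trpc5 and Pkd1l2. Trpa1, a channel opened by irritant chemicals, gave 15.2, 2.75 and 0.92 in the adult and 16.4, 25.7 and 6.42 at P3, and its 2 arrays above background were both of P3.

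Of the 33 members, 18 were read by more than 1 kept probe set. In 13 of these all probe sets had log2 fold changes of 1 sign, and in 5, Clic5, Mcoln3, Trpm2, Trpm3 and Trpm7, the signs were mixed. The 6 probe sets of Trpm3 ran from -1.02 to 0.70, and the 4 of Trpm7 from -0.19 to 1.67, so the brightest probe set did not give the sign of all the others. All 5 probe sets of Clcn3 were positive, from 0.24 to 1.56, and all 4 of Clcn5 negative, from -1.51 to -0.92. Without P3 replicate 1, 13 were again of 1 sign and 5 mixed, but Clic5 was no longer mixed and Clic4 was, and the ranges were -0.87 to 0.29 for Trpm3 and -0.63 to 0.97 for Trpm7. Among all 66 kept member probe sets, 5 were called, 1 higher in the adult (Ano4) and 4 at P3 (both of Ano1 and 1 each of Clcn5 and Trpm5). This was 7.58% of them, against 7.26% of all kept probe sets, where 3.39% were called for the adult and 3.87% for P3. The Trpm5 probe set was kept through its P3 arrays alone, as 0 adult arrays were above background, so its count here depends on the filter.

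**Figure D3:**
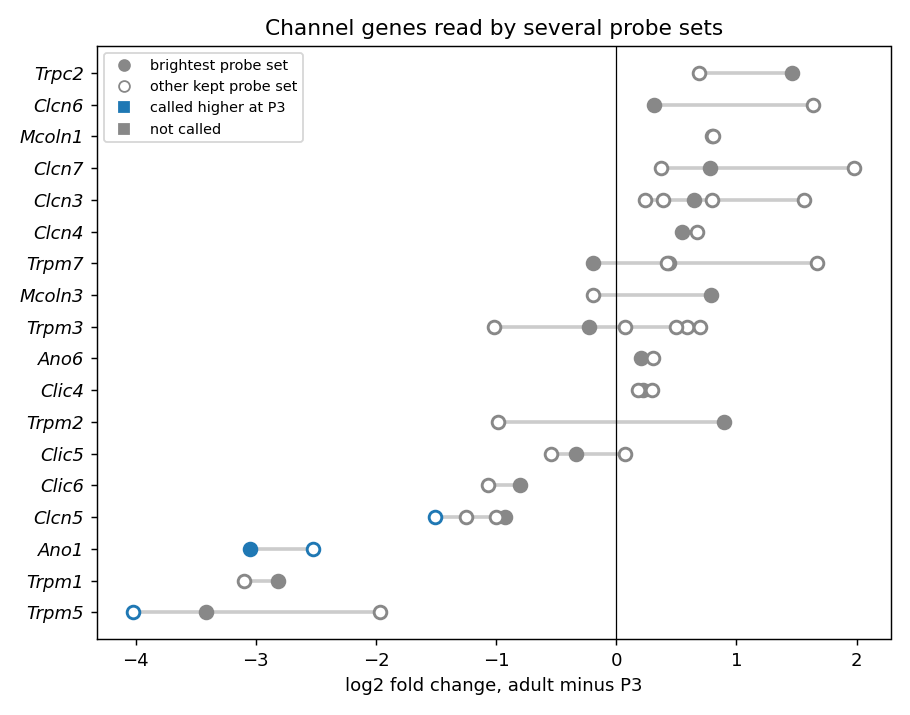
The horizontal axis gives the log2 fold change (adult minus P3) at each kept probe set of the 18 members read by more than 1, with filled points for the brightest probe set and blue for those called higher at P3. The probe sets of Ano1, Trpm1, Trpm5, Clcn5 and Clic6 all lie below 0, while those of Trpm3, Trpm7, Trpm2, Mcoln3 and Clic5 lie on both sides.

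Other genes of chloride transport were read beside the channels, from a list of 33 cotransporters, exchangers and channel partners, of which 29 were named on the array and 20 tested. Of the 20, 3 were called as higher in the adult and 2 as higher at P3, or 25%, against 10.1% of all genes. The list was chosen with earlier results of these data known, so these shares cannot be read as an enrichment. The median log2 fold change of the 20 was 0.25. Slc26a4, pendrin, the exchanger of chloride and bicarbonate that is mutated in Pendred syndrome, gave 891, 3119.7 and 1800.3 in the adult and 107, 109 and 111 at P3. All adult arrays lay far above the P3 arrays, and Slc26a4 rose by a log2 fold change of 3.97 (limma, SE 0.40, adjusted p = 0.00168), or 15.7-fold. Slc12a7, a potassium chloride cotransporter needed for hearing in mice, gave 959, 739.9 and 1244 in the adult and 238, 229 and 232 at P3, a log2 fold change of 2.04 (limma, SE 0.24, adjusted p = 0.00272). Slc26a7, an anion exchanger of the same family as Slc26a4, gave 1047, 1098 and 1031 in the adult and 507, 536 and 296 at P3, a log2 fold change of 1.29 (limma, SE 0.27, adjusted p = 0.0249). Slc26a4 and Slc12a7 were called with any single array left out. Slc26a7 was not called without adult replicate 1, 2 or 3 (limma adjusted p = 0.0571, 0.0633 and 0.107) or P3 replicate 3 (0.0753), nor with arrays scaled to the same median (0.127), without the intensity trend (0.0854) or by the mean over its probe sets (0.134). Of 5 markers of strial marginal cells measured, 1 was called higher in the adult, and their summed signal was 2181 to 4249 in the adult and 726 to 1171 at P3. The stria vascularis and the spiral ligament were removed in the dissection. Of 5 markers of spiral ligament fibrocytes, 2 were called higher in the adult, Coch, 16.9-fold, and Otos, 5.26-fold, and 0 at P3. Pou3f4 and Tbx18 were lower on every adult array than on any P3 array (log2 fold change -1.01 and -1.18), but were not called. Car3 lay between at -0.06, which was also the median of the 5. Their summed signal was 25228 to 34818 in the adult and 10498 to 26321 at P3, or 10498 to 12030 without P3 replicate 1. No marker of either list was below background on all arrays of a stage, and their part in the values of Slc26a4, Slc12a7 and Slc26a7 was not tested.

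The 2 partners higher at P3 were tweety proteins, which have been described as anion channels. Ttyh1 gave 260.3, 31.9 and 51.4 in the adult and 617, 501 and 474 at P3, and adult replicate 1 stood above the other adult arrays and still below P3. Its log2 fold change was -2.81 (limma, SE 0.66, adjusted p = 0.0387), and the call was lost without P3 replicate 1, 2 or 3 (adjusted p = 0.0690, 0.0842 and 0.0839) and without adult replicate 2 or 3 (0.0834 and 0.161). Ttyh3 gave 72.4, 29.2 and 55.6 in the adult and 132, 159 and 249 at P3, a log2 fold change of -1.83 (limma, SE 0.40, adjusted p = 0.0311). It kept its call without P3 replicate 1 (log2 fold change -2.02) and lost it without P3 replicate 2 or 3 (adjusted p = 0.0815 and 0.113) or adult replicate 2 or 3 (0.0587 and 0.106). With arrays scaled to the same median the adjusted p was 0.0701 for Ttyh1 and 0.120 for Ttyh3, and without the intensity trend it was 0.108 and 0.0831. By the mean over its probe sets Ttyh1 had an adjusted p of 0.0829. Of 14 measured genes of phosphoinositide signalling and store-operated calcium entry, which act before or beside TRP channels, 0 were called. At an unadjusted p under 0.05 limma placed 3 of the 14 higher in the adult, or 21.4%, and 0 at P3, against 13.1% and 15.8% of all genes. That list too was chosen with earlier results of these data known.

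**Figure D4:**
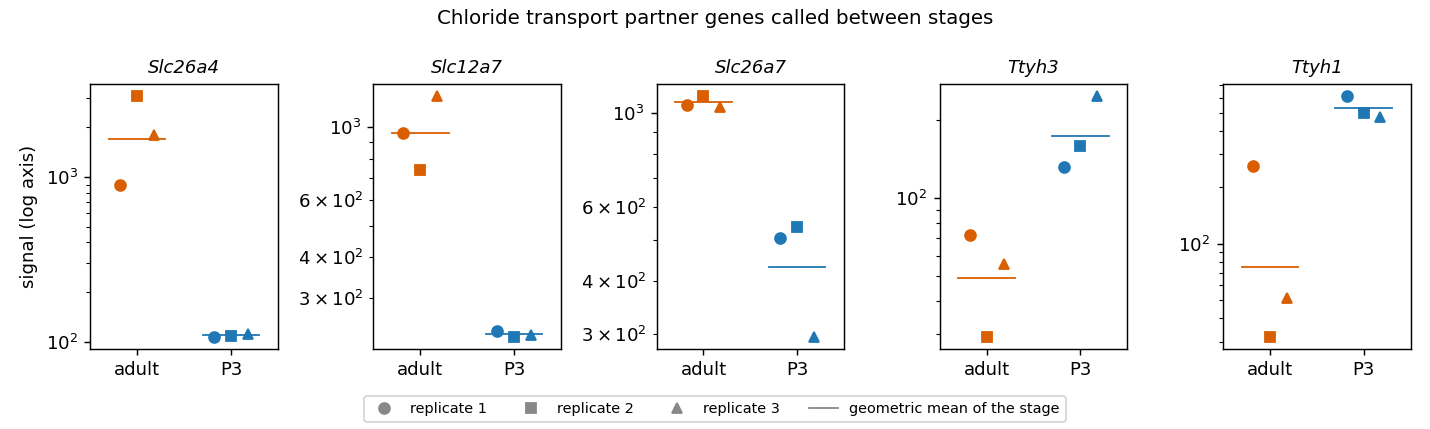
Signal on each of the 6 arrays (vertical log axis) of the 5 chloride transport partners that were called, with marker shapes for replicates and lines for geometric means. Slc26a4, Slc12a7 and Slc26a7 are higher on all adult arrays, and Ttyh3 and Ttyh1 are lower on them.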

How the data were processed

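RNA of 6 pools of CSE, 3 per stage, was measured on Affymetrix Mouse Genome arrays. The deposited values are linear signal intensities from MAS5.0, which the authors computed with Affymetrix software and scaled to a trimmed mean of 100 per array; the submitters' processing notes name GCOS 1.2, whereas the methods name another version of it for the images and Expression Console for the analysis. No further normalization was applied, and the number of arrays limits the precision. Genes were named by an annotation of 2016, and all 48 members matched RefSeq by gene ID. The background level of an array was the 90th percentile over 83 probe sets of chemosensory receptor genes (olfactory, vomeronasal and bitter taste). The 29036 probe sets that exceeded it on 3 or more arrays entered a fit of log2 signals on stage alone in limma (version 3.58.1, R 4.3.3; lmFit, then eBayes with a trend on intensity). Calls needed both a fold of 2 or more and a p under 0.05 after Benjamini-Hochberg adjustment, and a gene was read at the kept probe set with the highest mean (its brightest). A fold is "at least" that value where no array of the lower stage exceeded background, taken against signals raised to the background level. Every member could be named, with called partners. Per-array signals are given for called members and for more than the 15 others that the rule on named genes allowed, the further ones chosen after their values were seen. The members and lists were chosen with earlier results of these data known. The alternatives were other scalings, filters and background treatments, eBayes without the trend, array quality weights, a block for the replicate number, leaving out each array in turn and the mean over a gene's probe sets.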

Additional observations from a re-analysis of the deposited data

How the results depend on the processing

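Of 16 alternatives, Ano1 was called higher at P3 in all 16 (log2 fold change -3.15 to -2.78) and Ano4 higher in the adult in 9 (1.04 to 1.46), with an adjusted p of 0.190 with arrays scaled to the same median and 0.0748 without the intensity trend. The 1 member higher in the adult became 0 with arrays scaled to the same median or without the trend and 9 with array quality weights, and 0 to 2 with single arrays left out, where the called gene was Mcoln3 without adult replicate 1 and Pkd1 without adult replicate 2. The 1 member higher at P3 became 2 with the replicate block, with the mean background added or with signals floored at background, 5 with array quality weights and 4 with the mean over a gene's probe sets, and 1 to 2 with single arrays left out. Partners higher in the adult, 3 in all, became 8 with array quality weights, and 2 to 4 with single arrays left out. Partners higher at P3, 2 in all, became 0 with arrays scaled to the same median or without the trend and 1 with the mean over probe sets, and 0 to 2 with single arrays left out. Over all probe sets, 2109 were called, against 562 with arrays scaled to the same median, 899 without the trend, 7593 with array quality weights and 576 to 2839 with single arrays left out. The log2 fold change turned sign for Ano10 with array quality weights (0.44), for Ano8 with signals floored at background (-0.15), and with the mean over probe sets for Trpm2 (-0.046), Trpm3 (0.10) and Trpm7 (0.59), and it ran from -0.23 to 0.28 for Ano10 and from -0.39 to 0.062 for Trpc1 with single arrays left out; the cause was not tested. Deviations of same-numbered arrays correlated at 0.18, 0.21 and 0.08, and every array correlated best with its own number, but the labels give no shared litter or day, so no pairing was assumed; with the replicate block Trpm5 was also called at its brightest probe set (adjusted p = 0.0330). Signals near background, as for Trpm1, Trpm5, Trpc7 and Pkd2l1, limit how well a fold could be measured.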
